A study of Rattus norvegicus with 8 samples.

Results

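The receptors for serotonin, noradrenaline and adrenaline, histamine and acetylcholine were followed in the hypothalamus of female and male rats. Members were all non-control spots on the arrays whose gene name belongs to the Htr, Adra, Adrb, Hrh, Chrm or Chrn families, which gave 61 of 42877 spots, 52 of 30367 probes and 47 of 19204 named genes. They comprised 14 serotonin receptor genes on 17 probes, 9 adrenergic genes on 9 probes, 4 histamine genes on 5 probes, 4 muscarinic acetylcholine genes on 5 probes and 16 nicotinic acetylcholine genes on 16 probes. No probe carried the name Chrm1, and that receptor was not analysed here.

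Total RNA came from the hypothalami of 8 Sprague Dawley rats aged 3 to 4 months: 4 females, all in estrus, and 4 males. All animals were caged singly under 14 h of light and 10 h of dark with food at will, and the labels name no treatment. Every array carried 1 female and 1 male in opposite dyes, so that replicate n of both sexes shared array n. Females were labelled with Cy3 on arrays 1 and 3 and with Cy5 on arrays 2 and 4. The estrous stage was the same for every female, so sex and stage cannot be told apart.

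Most of these receptors sit in the cell membrane and act through G proteins: Htr1, Htr5a, Adra2, Hrh3, Hrh4, Chrm2 and Chrm4 through inhibitory ones, Htr4, Htr6, Htr7, Adrb and Hrh2 through stimulation of adenylyl cyclase, and Htr2, Adra1, Hrh1, Chrm3 and Chrm5 through phospholipase C. The Htr3 and Chrn proteins are instead subunits of ion channels that the transmitter itself opens. Serotonin and noradrenaline fibres reach the hypothalamus from the raphe nuclei and the brainstem, whereas histamine is made by neurons of the tuberomammillary nucleus, within the hypothalamus. Their receptors there are known for parts in feeding, wakefulness, body temperature and hormone release.

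Levels below are normalized log2 intensities in each sample's own dye channel and are compared only for the same probe. A ratio is the log2 of female over male within 1 array. Cy3 samples had median signals of 501.8 to 530.1 intensity units over background and Cy5 samples 147.7 to 271.8, and the number of arrays limits the precision of every value. Male replicate 2 stood apart from the other samples in genes other than the receptors too. The marker lists used to describe this were chosen with earlier results of these data known. Of 22 hypothalamic markers listed, 17 were well above background in all samples and 0 were undetected in every sample. Their mean level, relative to the mean of the dye, was -1.82 in male replicate 2 and 0.56 to 0.63 in the other Cy3 samples. Among markers of cortex, hippocampus and striatum, 14 of the 17 on the array were detected throughout, with a mean of 1.67 in male replicate 2 and -0.60 to -0.50 in the other Cy3 samples. Female replicate 2, on the same array, had a mean of 0.58 for these forebrain markers, against -0.26 to -0.07 in the other Cy5 samples, and a mean of 0.05 for the hypothalamic markers, against -0.05 to 0.02 in the other Cy5 samples. For the forebrain gene Neurod6 the 2 animals of replicate 2 were at 4.49 (male) and 2.60 (female). Of 7 thalamic and habenular markers on the array, 4 were detected throughout, while Gpr151 and Pou4f1 were not detected in any sample. The mean of those 4 was 0.12 in male replicate 2 and -0.06 to -0.01 in the other Cy3 samples. In male replicate 2 they ran from -0.43 (Lef1) to 1.09 (Prkcd). Where array 2 lay far from the other arrays, the value without replicate 2 is given too. That fit kept 1 array with the female in Cy5, array 4. Its standard errors and p-values rest on the difference between arrays 1 and 3, moderated by limma, and not on array 4.

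A spot counted as detected when the scanner software flagged it as well above background. In the dimmest probes the flag did not follow the signal over the local background. Chrm5 was flagged in female replicate 3 (-6.7 intensity units) and male replicate 4 (-4.7) but not in female replicate 4 (4.8). Chrna9, flagged in all samples, was at -7.2 in male replicate 2. Detection below means this flag alone, and expression of the dimmest receptors was not tested further. Of the 52 receptor probes, 33 were detected in all 8 samples, against 68.6% of all probes on the array, and 2 in none, against 14.5%. By gene, 31 of 47 were detected in all samples, 14 in some and 2 in none. Those 2 were Htr3b, the second subunit of the serotonin-gated channel, and Chrnd, a subunit of the nicotinic receptor of muscle.

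**Figure D1:**
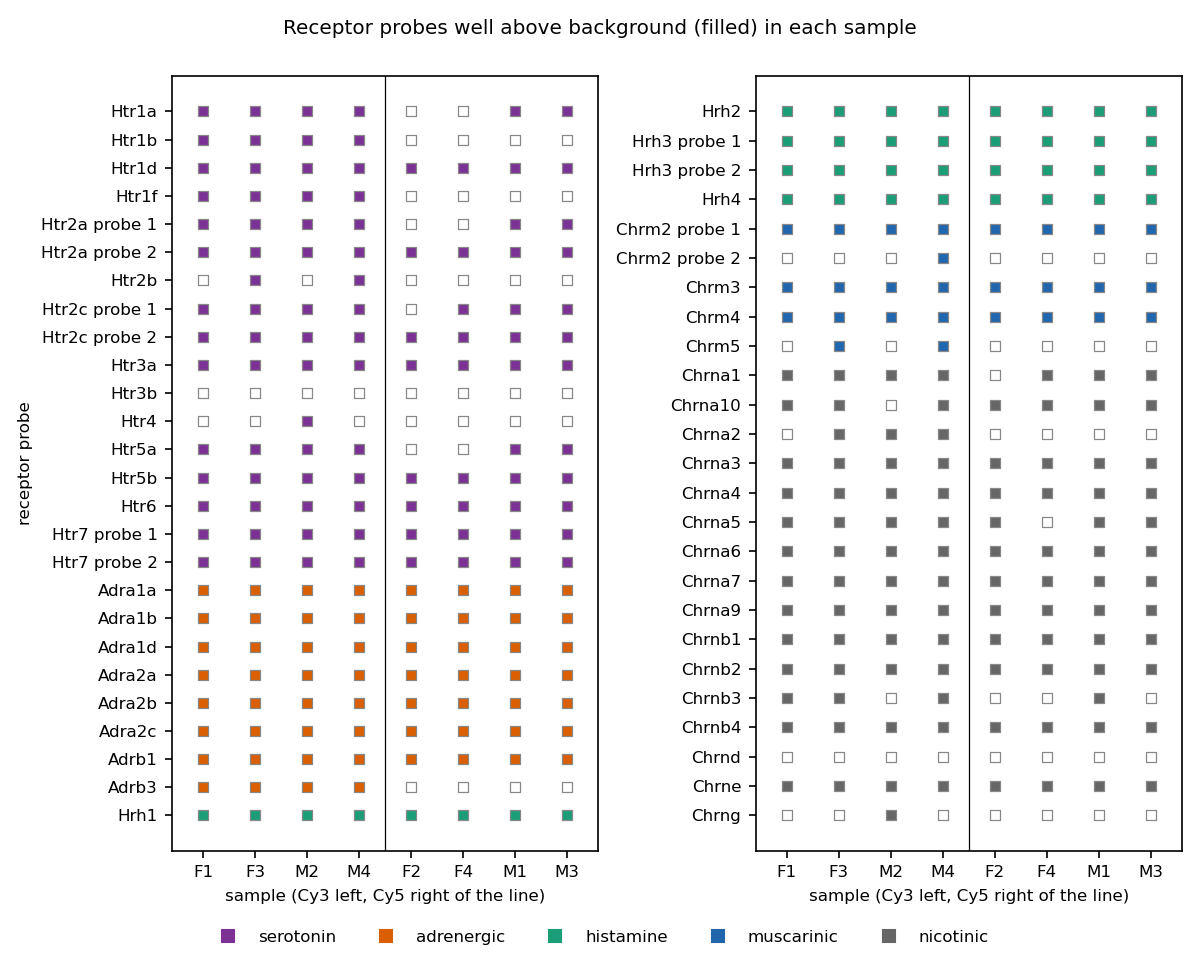
Detection of 51 receptor probes (rows) in each of the 8 samples (columns, F for female and M for male with the replicate number). A filled square is a probe well above background, colours give the transmitter, and the line separates Cy3 from Cy5 samples: 34 to 40 squares are filled in each Cy5 sample and 43 to 47 in each Cy3 sample.

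Detection of the dimmer receptors ran with the dye. Between 44 and 48 receptor probes (84.6% to 92.3%) were detected in each Cy3 sample and between 35 and 41 (67.3% to 78.8%) in each Cy5 sample. The dyes also differed over the whole array. Of all non-control spots, 84.9% to 87.0% were detected in each Cy3 sample and 77.6% to 80.2% in each Cy5 sample. Of the 14 genes detected in some samples, 13 were found in more Cy3 than Cy5 samples and 1 the other way, namely Chrna10, a subunit best known from cochlear hair cells. Htr1b and Htr1f, inhibitory serotonin receptors, and Adrb3, the adrenergic receptor of fat tissue, were detected in all 4 Cy3 samples and in 0 Cy5 samples. Set out by sex, 7 of the 14 were found in more males, 1 in more females and 6 in equal numbers. These counts by dye and by sex were not made over all genes. Htr1a and Htr5a, both inhibitory, were detected in every sample except female replicates 2 and 4, which carried Cy5, and the part of the dye in this was not tested.

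Of the adrenergic genes 8 of 9 were detected in all samples, among them the alpha receptors Adra1a, Adra1b, Adra1d, Adra2a, Adra2b and Adra2c. All 4 histamine receptors were detected in all samples, among them Hrh3, the autoreceptor of histamine neurons, and Hrh4, better known from blood cells. Signals above background were only 6.7 to 20.8 intensity units for Hrh2 and 22.5 to 60.9 for Hrh4. The only Hrh4 probe is rich in TG repeats, and its specificity was not tested. Of the muscarinic genes Chrm2, Chrm3 and Chrm4 were detected throughout, and Chrm5 in 2 Cy3 samples (female replicate 3 and male replicate 4).

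Among serotonin receptors, Htr1d, Htr2a, Htr2c, Htr3a, Htr5b, Htr6 and Htr7 were detected in all samples by at least 1 probe. Htr1a and Htr5a were detected in 6 samples, Htr1b and Htr1f in 4, Htr2b in 2 and Htr4 in 1, male replicate 2. Of 16 nicotinic subunits 9 were detected throughout: Chrna3, Chrna4, Chrna6, Chrna7, Chrna9, Chrnb1, Chrnb2, Chrnb4 and Chrne. Chrna4 and Chrnb2 form the most common nicotinic channel of the brain, Chrna7 forms channels of its own, and Chrnb1 and Chrne are known from muscle. Chrna1, Chrna5 and Chrna10 were detected in 7 samples, Chrnb3 in 4, Chrna2 in 3 and Chrng in 1.

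The sexes were compared in 36 genes that passed the filter on dim probes, which asked for detection in all 4 samples of at least 1 sex. A gene with several probes was represented by its brightest. The 11 genes that missed the filter were Adrb3, Chrm5, Chrna2, Chrnb3, Chrnd, Chrng, Htr1b, Htr1f, Htr2b, Htr3b and Htr4. Their probes, with the second probe of Chrm2, had log2 levels from 6.41 to 7.24 in every sample. Of the 52 receptor probes 40 passed, against 72.5% of all probes. Htr1a, Htr5a, Chrna1 and Chrna5, and the brighter Htr2a probe, passed through the males alone and Chrna10 through the females alone, so these were kept on the strength of 1 sex.

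No receptor gene differed between the sexes at an adjusted p under 0.05 in limma, and neither did any of the 14603 genes tested (0 of them, 0.00%). The lowest adjusted p among receptors was 0.555. At an unadjusted p under 0.05, 1 of 36 receptor genes was counted, against 8.52% of all genes. It was higher in females, as were 5.01% of all genes, and 0 receptor genes were higher in males, against 3.51%. With the scanner software's log ratio 3 of 36 receptor genes (Adra2a, Htr1a and Htr2a) had such a p, against 7.16% of all genes. Of these, the Htr1a and Htr2a probes had passed the filter through the males alone, the sex in which they then read higher. With the authors' deposited table of values it was 5 of 19 (Adra1d, Adra2a, Adra2c, Chrm3 and Hrh4), against 10.2%. Past the adjusted threshold were 0 in both. Fitted ratios lay above 0 for 18 receptor genes and below 0 for 18, against 56.2% above 0 over all genes. Their median was -0.0037, against 0.02 over all genes, and the median receptor ratio on arrays 1 to 4 was -0.06, 0.07, -0.06 and -0.01. The ratio had the same sign on all 4 arrays for 5 receptor genes (10.5% of all genes), above 0 for Htr3a and below 0 for Adra1d, Adra2c, Chrm3 and Chrna7, and followed the dye orientation for 12 of 36 (42.0% of all genes).

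How small a difference this fit could bound varied by gene. The fitted ratio was under 0.1 in size for 22 of 36 genes, against 49% of all genes, and at least 0.3 for 4, against 11.6% of all genes, namely Adra1d, Htr5b, Chrm3 and Adra2c. Standard errors ran from 0.06 to 0.46. In this fit the 95% interval of the female over male difference lay within 1 log2 unit of 0 for 33 genes. The interval reached beyond it for Adra1b (-1.03 to 0.99), Adra1d (-1.91 to 0.30) and Htr5b (-1.73 to 0.75). An offset was added to the signals, and ratios of some dim genes changed with the processing. Htr1a was at -0.16 here, -0.24 with offset 16, -0.46 with no background correction and -1.13 with the scanner log ratio. Htr2a was at -0.15, -0.26, -0.28 and -1.23. Chrna10 moved both ways, at -0.11, -0.17, -0.09 and 0.31. No intervals are given for these alternatives, so the bounds hold for this fit alone.

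**Figure D2:**
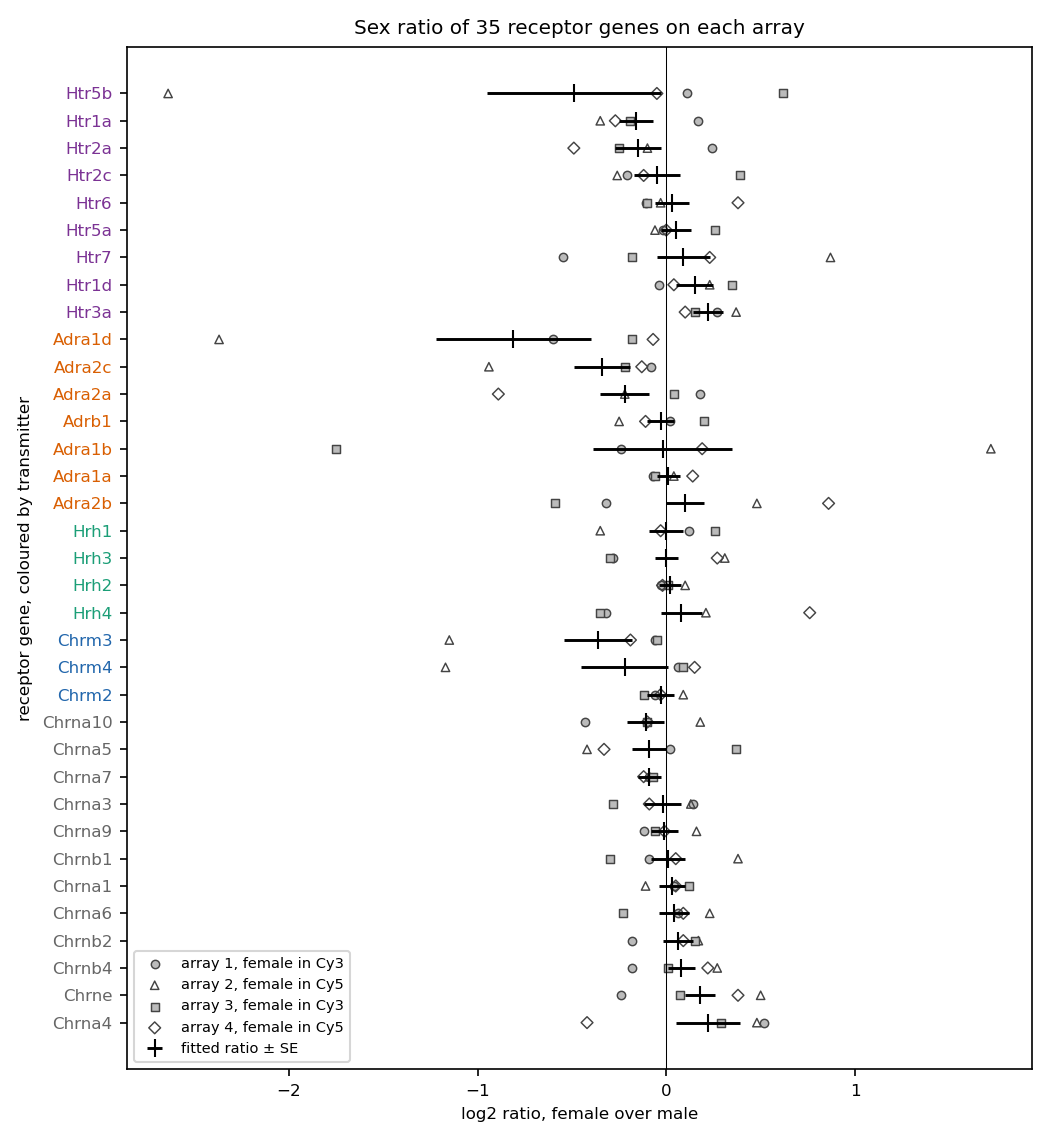
Log2 ratio of female over male for 35 tested receptor genes, grouped and coloured by transmitter. Grey symbols are arrays with the female in Cy3, open symbols arrays with the female in Cy5, and the black tick with its bar is the fitted ratio with its standard error. Most genes sit close to 0, while array 2 (open triangles) lies far out for Htr5b, Adra1d, Chrm3, Chrm4 and Adra2c on the left and for Adra1b on the right.

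Htr3a, which forms the serotonin-gated ion channel, had the smallest unadjusted p of the receptors. Its level was 9.82, 9.61, 9.72 and 9.54 in female replicates 1 to 4 and 9.54, 9.24, 9.58 and 9.44 in male replicates 1 to 4. The groups met at their edge: the lowest female and male replicate 1 were both at 9.54, and male replicate 3 was above them. Within each array the female was higher, with ratios of 0.27, 0.37, 0.15 and 0.10. The fitted ratio was 0.22 ± 0.08 (SE, n = 4 arrays), a fold of 1.17, at an unadjusted p of 0.0453 and an adjusted p of 0.555 in limma. The probe lies at chr8:52161175-52161234 on the minus strand of rn4. Male replicate 2 had the lowest level, and without replicate 2 the ratio was 0.16 ± 0.07 at an unadjusted p of 0.106.

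The G-protein-coupled serotonin receptors had ratios on both sides of 0. Htr1a, the autoreceptor of serotonin neurons that is also found on their targets, had a level of 7.02, 7.15, 6.79 and 6.81 in the females and 6.85, 7.50, 6.98 and 7.07 in the males. The sexes overlapped, and the ratios on arrays 1 to 4 were 0.17, -0.35, -0.19 and -0.27 with a fitted value of -0.16 ± 0.09 and an unadjusted limma p of 0.138. With the scanner log ratio the value was -1.13 at an unadjusted limma p of 0.019. The probe was kept through the males alone. Its signals above background were 8.9 and 6.0 intensity units in female replicates 2 and 4, where it was not detected. Htr1d, a further inhibitory receptor, had levels of 7.29, 7.28, 7.42 and 7.31 in the females and 7.32, 7.05, 7.07 and 7.27 in the males. Only male replicate 1 lay among the female values, and the fitted ratio was 0.15 ± 0.10 at an unadjusted limma p of 0.197. For Htr2a, a receptor that excites cortical neurons, levels were 7.11, 6.66, 6.77 and 6.73 in the females and 6.88, 6.76, 7.01 and 7.22 in the males, with a fitted ratio of -0.15 ± 0.12 at an unadjusted limma p of 0.28. The scanner log ratio gave -1.23 at an unadjusted limma p of 0.0155. This probe too was kept through the males alone, with signals of -1.8 and 2.0 intensity units in female replicates 2 and 4. The dimmer Htr2a probe gave 0.01 ± 0.08.

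Htr2c, an X-linked receptor through which serotonin lowers food intake, was bright. Its level was 12.30, 12.18, 12.89 and 12.86 in the females and 12.51, 12.44, 12.51 and 12.99 in the males. The sexes overlapped, and the fitted ratio was -0.05 ± 0.12. Its second probe, dim in all samples, gave -0.06 ± 0.08. Htr7, a receptor known from the circadian clock of the hypothalamus, had ratios of -0.55, 0.87, -0.18 and 0.23, negative where the female was in Cy3 and positive where she was in Cy5, with a fitted value of 0.09 ± 0.14 and -0.07 ± 0.11 without replicate 2. Its dimmer probe gave -0.03 ± 0.07. Htr5a and Htr6 had fitted ratios of 0.05 ± 0.08 and 0.03 ± 0.09.

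Among adrenergic receptors, the alpha-2 members Adra2a, Adra2b and Adra2c curb the release of noradrenaline. Adra2a had levels of 7.81, 7.48, 7.73 and 7.42 in the females and 7.62, 7.69, 7.68 and 8.31 in the males. Male replicate 4 was above all others and the remaining animals overlapped. The ratios were 0.18, -0.22, 0.04 and -0.89, with signs that followed the dye, and a fitted value of -0.22 ± 0.13 at an unadjusted limma p of 0.167. The scanner log ratio gave -0.55 and the authors' deposited table -0.92, at unadjusted limma p of 0.0381 and 0.00408. Male replicate 4 also had the highest mean of the choroid plexus markers detected throughout, 1.09 against -0.59 to -0.15 in the other Cy3 samples. Of these 7 markers Enpp2 had no value on array 1 and was left out of the mean. In male replicate 4 Ttr was at 3.13 and Sostdc1 at 1.37, and the others ran from 0.34 to 0.72. The part of this in the Adra2a value was not tested. Leaving out replicate 4 gave -0.05 ± 0.08 and leaving out replicate 2 gave -0.39 ± 0.08.

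Adra2b followed the dye. Its level was 10.10, 10.65, 10.12 and 10.94 in the females and 10.43, 10.17, 10.71 and 10.08 in the males, so that the 4 Cy5 samples, 10.43 to 10.94, lay above the 4 Cy3 samples, 10.08 to 10.17. The ratios were -0.32, 0.48, -0.59 and 0.86 and the fitted value was 0.10 ± 0.10 at an unadjusted limma p of 0.354. Adra1a, which raises calcium in its target cells, had a fitted ratio of 0.01 ± 0.06, and Adrb1, which raises cyclic AMP, one of -0.03 ± 0.07.

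The brightest probes of the 4 histamine receptors had fitted ratios from 0.00089 to 0.08. Hrh3 had levels of 13.37, 14.02, 13.31 and 13.58 in the females and 13.65, 13.71, 13.61 and 13.30 in the males, and its ratios of -0.28, 0.31, -0.30 and 0.27 followed the dye. Its fit gave 0.0021 at a standard error of 0.06, while the dimmer Hrh3 probe gave -0.20 ± 0.11. Hrh1, the excitatory receptor blocked by sedating antihistamines, had levels of 7.51, 7.35, 7.44 and 7.35 in the females and 7.39, 7.71, 7.18 and 7.38 in the males. Male replicate 2 was the highest and male replicate 3 the lowest, and the fitted ratio was 0.00089 at a standard error of 0.09. Hrh2, known from acid secretion in the stomach, had levels of 6.90, 7.02, 6.88 and 6.78 in the females and 6.92, 6.92, 6.87 and 6.79 in the males, with a fitted ratio of 0.02 ± 0.06. Hrh4 had levels of 7.08, 7.28, 7.11 and 7.53 in the females and 7.39, 7.07, 7.46 and 6.77 in the males. Its 4 Cy5 samples were 7.28 to 7.53 and its 4 Cy3 samples 6.77 to 7.11, and the fitted ratio was 0.08 ± 0.11. It was -1.18 in the authors' deposited table, at an unadjusted limma p of 0.0038.

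The nicotinic subunits gave fitted ratios from -0.11 to 0.22 with a median of 0.02 over 12 genes. Chrna7 was the most even gene across arrays, with ratios of -0.09, -0.09, -0.07 and -0.12. Its levels were 7.01, 7.26, 6.99 and 7.02 in the females and 7.10, 7.35, 7.06 and 7.14 in the males. The animals of replicate 2 were the highest of their sex and the sexes overlapped, but on each array the male was higher. This gave a fitted ratio of -0.09 ± 0.06, a fold of 0.938, at an unadjusted limma p of 0.202. Chrna4 had levels of 9.77, 9.58, 9.57 and 9.32 in the females and 9.25, 9.10, 9.28 and 9.74 in the males. The female was higher on arrays 1 to 3, at 0.52, 0.48 and 0.29, and the male on array 4, at -0.42, where the lowest female met the highest male. Over all arrays the ratio was 0.22 ± 0.17 at an unadjusted limma p of 0.265, and without replicate 2 it was -0.01 ± 0.08.

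Chrne, the subunit that marks the adult muscle receptor, had levels of 8.93, 8.66, 8.59 and 8.93 in the females and 9.17, 8.16, 8.52 and 8.54 in the males. Male replicate 1 was the highest of all, the other males were below every female, and the fitted ratio was 0.18 ± 0.08 at an unadjusted limma p of 0.0947. Chrna10 had levels of 6.81, 6.87, 7.19 and 6.98 in the females and 7.24, 6.69, 7.29 and 7.09 in the males, with a fitted ratio of -0.11 ± 0.10 at an unadjusted limma p of 0.303. The other 8 subunits, Chrna1, Chrna3, Chrna5, Chrna6, Chrna9, Chrnb1, Chrnb2 and Chrnb4, had fitted ratios from -0.09 to 0.08 with standard errors of 0.07 to 0.10.

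The array reads short stretches of these transcripts, and 5 probes that lie in coding sequence are shown to say which part of the message the values stand for. The probes for Adra2c (chr14:81108144-81108203, minus strand), Hrh1 (chr4:150432640-150432699, plus strand), Chrna7 (chr1:117587580-117587639, minus strand) and Htr1a (chr2:36435727-36435786, plus strand) end on the stop triplet, in capitals, that closes a reading frame open over all 60 bases of the probe, so each value stands for the last codons of the message. The Chrna4 probe (chr3:170171576-170174943, minus strand) has 60 bases that span 3368 bases of the rn4 genome, so its sequence crosses at least 1 splice junction and is read from spliced message. Exon numbers were not used here.
Adra2c: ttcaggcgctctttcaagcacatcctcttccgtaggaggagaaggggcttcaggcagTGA
Hrh1: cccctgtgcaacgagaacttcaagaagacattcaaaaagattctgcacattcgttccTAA
Chrna7: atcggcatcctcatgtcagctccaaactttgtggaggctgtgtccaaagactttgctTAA
Htr1a: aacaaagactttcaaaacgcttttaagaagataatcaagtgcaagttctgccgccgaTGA
Chrna4: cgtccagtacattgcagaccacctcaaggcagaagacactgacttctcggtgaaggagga

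The widest receptor differences of the data were between male replicate 2 and the samples of its own dye. Each sample was set against the mean of the other 3 samples of its dye, and male replicate 2 was the most distant of the 8 samples for 20 of 36 receptor genes, against 42% of all genes. It lay at least 1 log2 unit from the other Cy3 samples for 6 of 36 receptor genes, against 7.50% of all genes. Above them were Adra1d by 4.92, Htr5b by 3.98, Chrm4 by 1.93, Chrm3 by 1.37 and Adra2c by 1.17, and below them was Adra1b by -1.17.

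**Figure D3:**
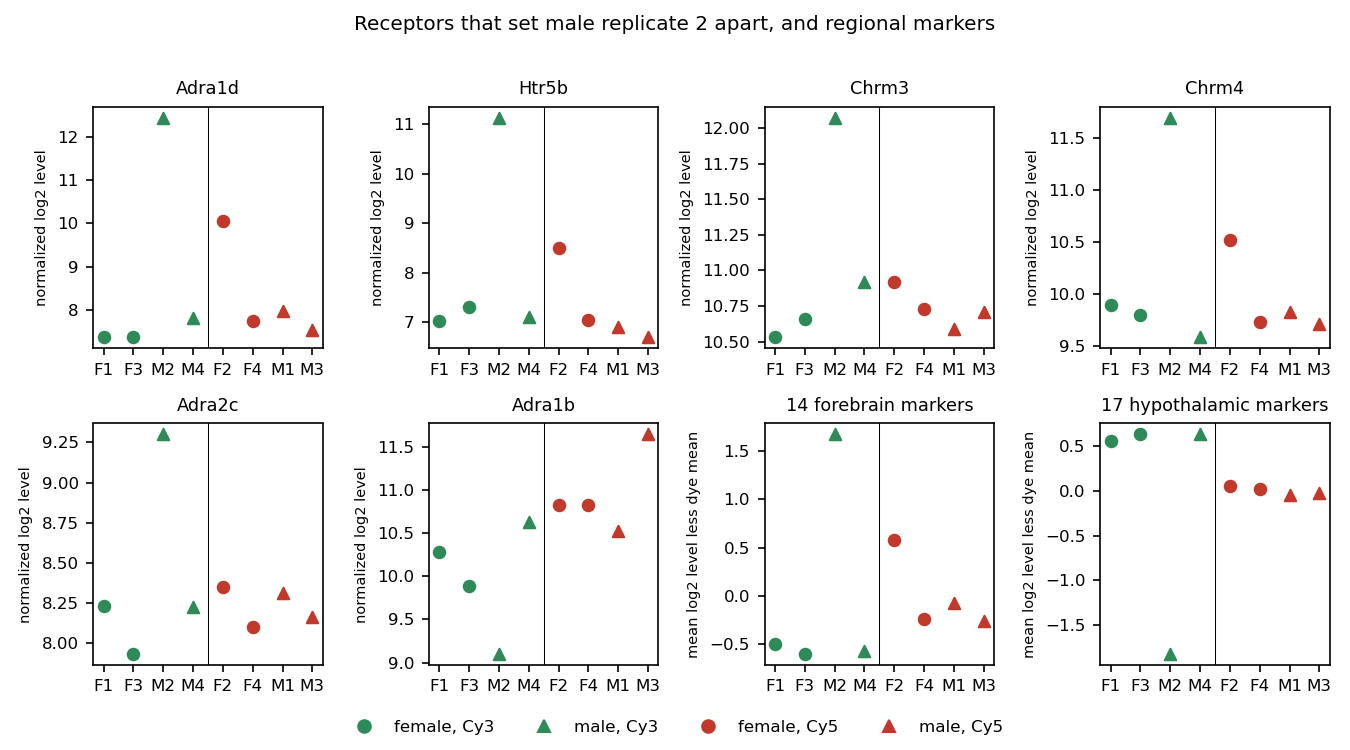
Normalized log2 level of the 6 receptor genes in which male replicate 2 lay at least 1 log2 unit from the other Cy3 samples, and the mean level of 14 forebrain and 17 hypothalamic markers less the mean of the dye. Circles are females, triangles males, green Cy3 and red Cy5, and the vertical axes differ. Male replicate 2 is the highest sample for Adra1d, Htr5b, Chrm3, Chrm4, Adra2c and the forebrain markers, and the lowest for Adra1b and the hypothalamic markers.

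Adra1d, an alpha-1 adrenergic receptor that in the rat brain is known above all from hippocampus and cortex, had a level of 7.37, 10.06, 7.37 and 7.74 in the females and 7.97, 12.43, 7.55 and 7.81 in the males. Both animals of replicate 2 were far above the other 6, which ranged from 7.37 to 7.97. In raw terms the signal above background was 9260.1 intensity units in male replicate 2 and 464.6 in female replicate 2, against 87.6 to 171.4 in the other Cy3 samples and 58.6 to 135.7 in the other Cy5 samples. The ratios on arrays 1 to 4 were -0.60, -2.37, -0.18 and -0.07, male above female each time. The fitted ratio was -0.81 ± 0.41, a fold of 0.572, at an unadjusted p of 0.114 and an adjusted p of 0.555 in limma. The authors' deposited table gave -1.23, and without replicate 2 it was -0.23 ± 0.11 at an unadjusted p of 0.114.

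This probe, at chr3:119280059-119280118 on the minus strand of rn4, was the only receptor probe printed on several spots, which gives its measurement error within an array. The 10 spots of array 2 ran from -2.66 to -1.99 with an SD of 0.22, and those of array 1 from -0.91 to -0.14 with an SD of 0.29. On arrays 3 and 4 they ran from -0.36 to 0.07 (SD 0.15) and from -0.34 to 0.08 (SD 0.13). The difference between array 2 and each of the other arrays was thus larger than the spread of the spots, and the difference between arrays 3 and 4 was not. Spots of 1 array share the same 2 RNA samples and are no replicates of the sexes.

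**Figure D4:**
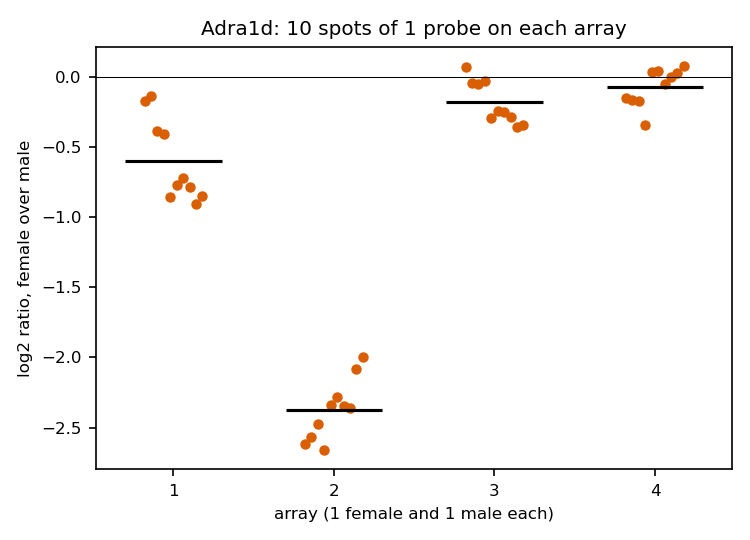
Log2 ratio of female over male for Adra1d at each of its 10 spots (points) on each of the 4 arrays, with the mean of the spots as a line. The spots of array 2 lie between -2.66 and -1.99, apart from those of every other array, whereas those of arrays 3 and 4 overlap around 0.

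Htr5b, a serotonin receptor known from rodent hippocampus and habenula, followed the same 2 animals. Its level was 7.02, 8.49, 7.31 and 7.05 in the females and 6.91, 11.13, 6.69 and 7.11 in the males. Male replicate 2 stood highest, female replicate 2 next, and the other 6 samples ranged from 6.69 to 7.31. The raw signal above background was 3696.5 intensity units in male replicate 2, against 31.1 to 60.7 in the other Cy3 samples, and 72.5 in female replicate 2, against 5.8 to 19.0 in the other Cy5 samples. The ratios were 0.11, -2.64, 0.62 and -0.05, positive where the female was in Cy3 and negative where she was in Cy5. The fitted ratio was -0.49 ± 0.46 at an unadjusted limma p of 0.339, and without replicate 2 it was 0.16 ± 0.13. The probe lies at chr13:33545417-33545476 on the minus strand of rn4.

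The muscarinic receptors Chrm3 and Chrm4 showed smaller steps. Chrm4, an inhibitory receptor abundant in striatum, had levels of 9.89, 10.52, 9.80 and 9.73 in the females and 9.82, 11.69, 9.71 and 9.58 in the males. Again the 2 animals of replicate 2 were the highest of their sex. The ratios were 0.06, -1.17, 0.09 and 0.15 and the fitted value was -0.22 ± 0.23, which became 0.11 ± 0.07 without replicate 2. Chrm3, which raises calcium through phospholipase C, had levels of 10.53, 10.92, 10.66 and 10.73 in the females and 10.59, 12.07, 10.71 and 10.92 in the males. Male replicate 2 was apart, while female replicate 2 lay level with male replicate 4. The ratios were -0.06, -1.15, -0.05 and -0.19, and the fitted value was -0.36 ± 0.18 at an unadjusted limma p of 0.102 and -0.12 ± 0.07 without replicate 2. The Chrm4 probe lies at chr3:76309651-76309710 and the Chrm3 probe at chr17:71218386-71218445, both on the plus strand of rn4. Chrm2, an inhibitory receptor known from the heart and from cholinergic nerve endings, had levels of 6.93, 7.07, 7.02 and 7.11 in the females and 6.99, 6.98, 7.14 and 7.14 in the males, with a fitted ratio of -0.03 ± 0.07. Male replicate 2 was not apart in Chrm2.

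Adra2c had levels of 8.23, 8.35, 7.93 and 8.10 in the females and 8.31, 9.30, 8.16 and 8.22 in the males. Male replicate 2 was apart and the other 7 samples overlapped. The ratios were -0.08, -0.94, -0.22 and -0.13, below 0 on all arrays, with a fitted value of -0.34 ± 0.15 at an unadjusted limma p of 0.0874 and -0.14 ± 0.08 without replicate 2. The authors' deposited table gave -0.73. Adra1b was at the other end in male replicate 2. Its level was 10.28, 10.82, 9.89 and 10.82 in the females and 10.52, 9.10, 11.64 and 10.63 in the males. Male replicate 2 was the lowest and male replicate 3 the highest. The sign of the ratio followed the dye, and ratios of -0.24, 1.72, -1.75 and 0.19 gave a fitted value of -0.02 ± 0.37, with -0.40 ± 0.34 without replicate 2. In male replicate 2 the mean of the forebrain markers was 1.67 and that of the hypothalamic markers -1.82. This is a single pair of means for that animal, and these 6 genes were picked for being apart in it. The part of the dissected tissue in the receptor values was not tested. In whole tissue, fewer cells of a type and less RNA per cell cannot be told apart.

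Without replicate 2, 0 of 36 receptor genes passed the adjusted threshold (0.00% of all genes) and 2 had an unadjusted limma p under 0.05, against 8.06% of all genes. They were Adra2a, at -0.39, and Hrh4, at 0.22. This fit kept array 4 as its only array with the female in Cy5, where the ratios were -0.89 for Adra2a and 0.76 for Hrh4. Without replicate 4 the outcome turned: 5 of 36 receptor genes passed the adjusted threshold, against 7.55% of all genes, and 7 passed the unadjusted one, against 31.1%. The 5 were Adra1d, Adra2c, Chrm3, Chrm4 and Htr5b, all lower in the female and all among those set apart in male replicate 2. That fit kept a single array with the female in Cy5, array 2, and 1 residual degree of freedom per gene before moderation by limma.

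For 3 of the 5 receptors that stood highest in male replicate 2, the sequence before the start of the gene is shown. The 5 were picked for their level in that animal, and whether they share any control was not tested. RefSeq gave a promoter for 35 of the 47 receptor genes. The 250 bases before the start on the GRCr8 build were searched on both strands for the E-box CANNTG, the GC box GGGCGG, the CCAAT box and the TATAAA box, and matches are in capitals, those of different motifs being free to overlap. Of 27457 promoters of that length, 65.2% held CANNTG, 32.4% GGGCGG, 34.3% CCAAT and 13.1% TATAAA. Adra1d (chr3:139262332-139262581, minus strand) held 0 matches to any of the 4. Htr5b (chr13:35252587-35252836, minus strand) held 1 GGGCGG and 1 CCAAT, and Chrm4 (chr3:98348830-98349079, plus strand) held 1 CANNTG, 3 GGGCGG as counted with overlaps, and 1 CCAAT. The other 2, not printed, held 3 CANNTG and 1 GGGCGG (Chrm3) and 1 CANNTG and 2 GGGCGG (Adra2c). GGGCGG was thus in 4 of the 5 promoters, CANNTG in 3 and CCAAT in 2, and no motif was in all 5.
Adra1d: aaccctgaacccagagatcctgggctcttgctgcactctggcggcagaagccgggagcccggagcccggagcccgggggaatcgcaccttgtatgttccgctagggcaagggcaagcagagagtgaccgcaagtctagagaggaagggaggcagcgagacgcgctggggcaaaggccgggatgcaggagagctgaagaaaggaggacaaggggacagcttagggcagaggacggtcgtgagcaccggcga
Htr5b: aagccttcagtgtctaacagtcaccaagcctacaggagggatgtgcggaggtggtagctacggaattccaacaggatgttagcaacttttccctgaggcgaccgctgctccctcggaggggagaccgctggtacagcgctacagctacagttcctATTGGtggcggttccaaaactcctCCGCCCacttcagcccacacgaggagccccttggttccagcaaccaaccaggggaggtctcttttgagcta
Chrm4: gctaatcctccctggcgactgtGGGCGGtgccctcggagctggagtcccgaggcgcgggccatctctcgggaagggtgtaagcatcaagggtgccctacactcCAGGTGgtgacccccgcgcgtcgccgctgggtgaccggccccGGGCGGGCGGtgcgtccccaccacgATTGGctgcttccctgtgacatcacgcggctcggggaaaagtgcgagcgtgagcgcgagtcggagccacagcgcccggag

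The genes that make, move and break down the transmitters, and those that carry the receptors' signal, were examined in 8 lists, in which 0 genes passed the adjusted threshold. Of the 66 genes tested 2 had an unadjusted limma p under 0.05, against 8.52% of all genes, and 41 had a fitted ratio above 0, against 56.2%. In the noradrenaline list 4 of 6 listed genes were tested, all with fitted ratios above 0, and 1 had an unadjusted limma p under 0.05. This was Slc6a2, the noradrenaline transporter, with ratios of 0.17, 0.12, 0.47 and 0.22 and a fitted value of 0.25 ± 0.08 at an unadjusted p of 0.0356, which was 0.27 ± 0.09 without replicate 2. Th, the enzyme that starts catecholamine synthesis, had ratios of 0.17, 0.95, -0.43 and 0.28 and a fitted value of 0.25 ± 0.17, or 0.08 ± 0.15 without replicate 2. The serotonin list had 6 genes tested, 4 above 0. Ddc, which makes serotonin from its precursor, had ratios of 0.87, 2.20, 0.05 and -0.21 and a fitted value of 0.73 ± 0.44, or 0.12 ± 0.19 without replicate 2. Aldh2, which oxidises the breakdown product of serotonin, was at 0.14 ± 0.14 and at -0.04 ± 0.07 without it.

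In the histamine list 3 of 4 tested genes lay above 0. Hdc, the enzyme that makes histamine, had ratios of -0.28, 3.09, -0.35 and 0.46, the female of replicate 2 being far above the male of that array, and a fitted value of 0.73 ± 0.46, or 0.07 ± 0.07 without replicate 2. Slc22a3, a carrier that takes up monoamines, was at -0.09 ± 0.10. In the acetylcholine list 5 of 6 genes lay above 0, with Chat, which makes acetylcholine, at 0.21 ± 0.09 (unadjusted limma p 0.0906) and the choline carrier Slc44a1 at -0.18 ± 0.10. Of 8 genes for assembly and modulation of nicotinic receptors 7 lay above 0, with Agrn, which clusters receptors at the nerve-muscle junction, at 0.15 ± 0.11 and the chaperone Tmem35a at -0.25 ± 0.18, or 0.04 ± 0.09 and -0.01 ± 0.07 without replicate 2.

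Downstream of the receptors, 5 of 11 G protein alpha subunits lay above 0 and 6 below. Gnai1, the inhibitory subunit used by the Htr1, Adra2 and Chrm4 receptors among others, had ratios of -0.57, -1.09, -0.69 and -0.39, below 0 on every array. Its fitted value was -0.69 ± 0.14, at an unadjusted p of 0.00606 and an adjusted p of 0.555 in limma, and -0.51 ± 0.07 without replicate 2. Gna14 was at -0.52 ± 0.23, with -1.80 on array 2, and at -0.20 ± 0.09 without it. Among 11 adenylyl cyclases and phospholipases 3 lay above 0 and 8 below, with the cyclase Adcy3 at -0.19 ± 0.07 (unadjusted limma p 0.0525) and Plcb4, a phospholipase C, at 0.22 ± 0.10. Of 16 receptor kinases, arrestins and RGS proteins, which end G protein signals, 10 lay above 0, with Rgs2 at 0.23 ± 0.10 and Rgs9 at 0.46 ± 0.21. Rgs9 is also 1 of the forebrain markers. Its ratio on array 2 was 1.66, and without that array it was at 0.17 ± 0.08. The list medians ran from -0.04 to 0.17, against 0.02 over all genes.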

How the data were processed

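Hypothalamic total RNA of 4 female and 4 male rats was hybridized to a single Agilent slide of 4 two-colour arrays with 1 scan date, and the submitters' processing notes name Agilent Feature Extraction (10.7.3.1) for the quantification. Per the file headers, spot and local background signals are intensity values as scanned, and the scanner's log10 ratio sets red against green. The authors' deposited values are log2 of median signal minus median background less a constant for each sample (100% of values within 0.01). Columns of other samples numbered 0.

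Mean signals were corrected with normexp (offset 50) and loess-normalized within arrays in limma 3.58.1 under R 4.3.3, aided by data.table (1.17.8) and jsonlite 2.0.0. Each array lost 931 to 1096 outlier spots, 0 of them for receptors, and the spots of each probe were averaged. The filter on dim probes asked that more than 0.5 of the spots be well above background in every sample of 1 sex or both. The fit had terms for sex and dye, with Benjamini-Hochberg over 21995 probes and a threshold of 0.05. Levels per sample came from loess and Aquantile. Probe names, and probe positions on rn4, are those of the array files. The labels do not say that extractions were made on separate days, and p-values measure the spread between these animals. A female and a male are paired by their common array, and taking ratios within arrays makes it the block. Deviations of both animals of an array were taken from the means of their dyes and then of their sexes. Their correlations over 14488 genes were 0.61, 0.68, 0.46 and -0.08. Removing both means ties the animals of an array to each other, so unpaired animals would also give a correlation. These values alone do not measure the pairing.

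The members and lists were chosen with earlier results of these data known. Values of all samples are given for the up to 4 genes of each receptor group with the smallest p and for genes with 1 sign on all arrays and a ratio of at least 0.4. Htr2c, Htr5b, Adra1b and the other genes given in full were added after their values were seen. Up to 2 genes of each pathway list were named. The values of 1 receptor gene are not reported here, though counts over the receptors include it. Alternatives were no dye term, no replicate block, no background correction, offset 16, median centring, the scanner log ratio, the authors' table, other filters on dim probes, outlier spots kept, an intensity trend with a robust prior, the mean of a gene's probes and leaving out each replicate. The fit was tested on simulated ratios with the residual spread of these data. Of probes changed by 0.5 log2 units, 0 of 68 passed the adjusted threshold. At 1 log2 unit 30 of 66 passed and at 2 log2 units 46 of 66, with 4 false calls. Figures were drawn with matplotlib 3.10.9 and pandas 2.3.3 under Python 3.11.15.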

Additional observations from a re-analysis of the deposited data

Results flagged for a closer look

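In 108 groups of 4 values (the females, the males and the 4 array ratios of each of 36 receptor genes) 13 held a value far from its neighbours by Dixon's test, 12% of the groups. Over all genes 6.08% of such groups held one, and chance gives about 1 in 20. The groups are not independent, as ratios and levels come from the same spots. Each sex holds both dyes. Male replicate 2 gave the outlying level for Adra1d (12.43), Htr5b (11.13), Chrm4 (11.69) and Adra2c (9.30). Female replicate 2 gave it for Adra1d (10.06) and Chrna7 (7.26), and array 2 gave the outlying ratio for Chrm3 (-1.15), Chrm4 (-1.17) and Adra2c (-0.94). Male replicate 4 was outlying for Adra2a (8.31) and Htr2c (12.99), female replicate 3 was so for Chrna3 (7.07), and the ratio of Htr6 was so on array 4 (0.38). In total 9 of the 13 belonged to array 2.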

How the results depend on the processing

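The number of arrays limits these results. Dim receptors were detected in fewer Cy5 than Cy3 samples, and over the whole array fewer spots were detected in Cy5 samples too. The count of receptor genes past the adjusted threshold was 0 under every alternative except leaving out each replicate, where it ran from 0 to 5 (5 without replicate 4), and the median ratio stayed between -0.04 and 0.05. The count at an unadjusted p under 0.05 was 1. It was 0 without the dye term, with the pairing dropped (separate channels, no replicate block), with no background correction, with offset 16, with median centring and with the intensity trend, where 2.77% to 8.22% of all genes had such a p. It was 3 with the scanner log ratio, against 7.16% of all genes, and 5 of 19 genes in the authors' value table, against 10.2%. Leaving out each replicate gave 0 to 7. The direction reversed for Adra2b (-0.02), Hrh3 (-0.04) and Hrh4 (-1.18) in the authors' table, for Chrm2 (0.15), Chrna10 (0.31), Hrh1 (-0.11) and Hrh3 (-0.03) with the scanner log ratio, for Chrm2 (0.04) and Hrh1 (-0.05) with no background correction, and for Hrh3 with median centring (-0.02) and with the mean of its probes (-0.10). The cause was not tested. Over all 36 receptor genes the sign changed on leaving out at least 1 replicate for 23, a count not made over all genes. These were 7 of the 19 genes named by rule and 16 of the other 17. The rule chose genes by their p in these same arrays, so these shares cannot be set against each other. The 7 were Chrm2 (-0.06 to 0.0025), Chrm4 (-0.54 to 0.11), Chrna4 (-0.01 to 0.44), Hrh1 (-0.08 to 0.08), Hrh2 (-0.01 to 0.05), Hrh3 (-0.01 to 0.01) and Hrh4 (-0.06 to 0.22). Among the others, Htr5b ran from -1.14 to 0.16, Adra1b from -0.40 to 0.36, Htr7 from -0.07 to 0.25 and Htr2c from -0.20 to 0.10. With the scanner log ratio Htr1a was -1.13 and Htr2a -1.23, beyond 1 log2 unit. Both probes had passed the filter through the males alone.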
